A study of Zea mays with 11 samples.

Results

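In 625 maize genes the region upstream of the gene had a lower CHG methylation level in endosperm than in ear leaf, while the body CG level lay less than 15 percentage points under leaf or had no usable leaf value. For 47 of them leaf had no usable body value, and for a further 244 leaf body CG was under 5%, so that there was little or nothing to lose. They were found among 39475 nuclear gene models, of which they are 1.58%. A gene was taken when all 11 libraries had at least 20 CHG calls in its upstream region, the leaf upstream CHG level was at least 60%, the mean level of the 8 endosperm libraries lay at least 30 percentage points under leaf, and the mean endosperm level of body CG lay less than 15 points under leaf. A level is the methylated share of the cytosine calls of a region, and CHG stands for a cytosine followed by A, C or T and then by G. The call minimum left 33315 genes, and the leaf minimum left 19254, called leaf-high genes here. Of these, 795 met the upstream criterion, or 4.13%, and 170 of the 795 were set aside because body CG was lower as well, which left the 625 members, 3.25% of the leaf-high genes. The members were thus chosen by these leaf and endosperm values, so their difference is described below without a test.

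The libraries come from bisulfite sequencing of genomic DNA, in which unmethylated cytosine is read as thymine. All tissue was of the inbred line Mo17, from field-grown plants that were self-pollinated on a single day. The 8 endosperm libraries were taken on days 7, 9, 10, 11 and 13 after pollination and then on days 15, 20 and 25, the 2 whole seed libraries on days 3 and 5, and the ear leaf library, the control of the study, on day 13. Tissues were dissected by hand. Each stage has 1 library and the labels name no separate plants, so SDs and p-values reflect the spread over the libraries of a tissue, whose ages differ. Whole seed holds tissues other than endosperm, and its share of endosperm was not measured. Methylation tables hold no transcripts, so the tissue labels could not be set against marker genes. Endosperm and whole seed differ in tissue and in age, and these cannot be told apart.

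The endosperm is the nutritive tissue of the cereal seed, formed when a sperm cell fuses with the central cell. Plants keep CG methylation with a maintenance methyltransferase that copies it to the new DNA strand, and CHG methylation with chromomethylases, which are guided by methylation of histone H3 in a self-reinforcing loop. CHH methylation rests on small RNAs and further chromomethylases. In the central cell DNA glycosylases remove methylated cytosine from part of the maternal genome, and endosperm is known for lower DNA methylation than other tissues and for imprinted genes that carry parental methylation differences.

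Averaged over the members, upstream CHG stood at 45.2% ± 4.38 in the endosperm libraries (SD, n = 8), against 67.4% ± 0.661 in the whole seed libraries (SD, n = 2) and 80.9% in the leaf library. By day the endosperm means were 52.5% on day 7, 48.3% on day 9, 48.5% on day 10, 39.4% on day 11, 43.7% on day 13, 45.9% on day 15, 41.2% on day 20 and 42.3% on day 25. Day 7 was the highest and day 11 the lowest, and every one of these 8 means lay under the whole seed means of 67.9% on day 3 and 67.0% on day 5. Leaf-high genes as a whole had 63.8% ± 3.66 in endosperm (SD, n = 8), 75.2% ± 1.13 in whole seed (SD, n = 2) and 78.4% in leaf. The median difference from leaf was -34.1 points in the members and -13.9 points over leaf-high genes. Leaf-high genes as a class were thus lower in endosperm too. With each library first shifted by its own median over leaf-high genes, 49 genes met the rule, and all 49 were among the 625.

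**Figure D1:**
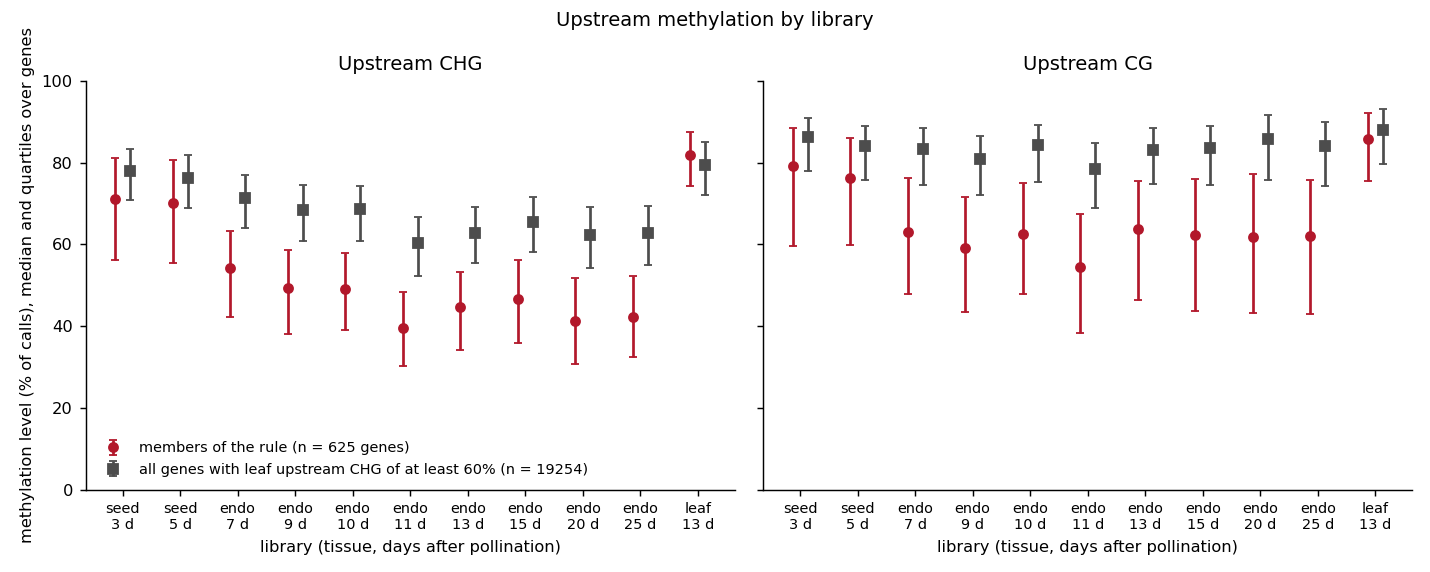
Upstream methylation level in percent of calls (vertical axis) in each of the 11 libraries (horizontal axis, in order of day, with the leaf last), for CHG on the left and CG on the right. Points are medians over genes and bars run over the quartiles, in red for the 625 members and in grey for the 19254 leaf-high genes. In the members the median CHG level lies between 39.6% and 54.2% in endosperm, at 71.1% and 70.1% in whole seed and at 81.8% in leaf.

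Single members spanned a wide range. Their mean endosperm level ran over the genes from 10.4% to 68.9% with a median of 46.2%, their whole seed mean from 14.8% to 94.1% with a median of 70.1%, and their leaf level from 60.2% to 100% with a median of 81.8%. In 617 members, 98.7%, each of the 8 endosperm libraries lay under leaf, which also held for 74.8% of leaf-high genes. In 45 members, 7.20%, each of the 8 lay at least 30 points under leaf, against 0.322% of leaf-high genes. The rule used this contrast, so nothing is read from these shares. The spread of a member over the 8 endosperm libraries had a median SD of 9.95 points, and over leaf-high genes it was 6.50 points. Just inside the threshold, GRMZM2G300945, GRMZM2G537291 and GRMZM2G483779 lay -30.014, -30.015 and -30.023 points from leaf. Just outside it, GRMZM2G050550, GRMZM2G429396 and GRMZM5G856928 lay -29.997, -29.990 and -29.989 points from leaf.

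The number of calls differed between members and other genes. A member had a median of 154 upstream CHG calls per library, and a leaf-high gene 333. Among genes whose poorest library held 20 to 39 calls, 9.75% were members, and this share was 5.48% at 40 to 79 calls, 4.08% at 80 to 159, 2.34% at 160 to 319 and 0.726% at 320 or more. These call classes were chosen after the data were seen, and the part of counting error in the membership was not tested over all genes. With a call minimum of 40 in every library, 444 genes met the rule, with mean levels of 44.96% in endosperm, 68.6% in whole seed and 80.2% in leaf. Within the deepest class 48 members were left, whose median difference from leaf was -32.3 points.

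Reading each endosperm library only after choosing members without it gave the same measure in a library the choice had not used. Between 555 and 735 genes met the rule in these 8 choices. Their mean in the library left out was 55.2% on day 7, 50.3% on day 9, 51.2% on day 10, 40.1% on day 11, 45.8% on day 13, 47.6% on day 15, 42.5% on day 20 and 43.4% on day 25, with leaf means of 80.6% to 81.0% for the same genes. From 98.6% to 100% of the genes were under leaf in the library left out, against 86.5% to 98.2% of leaf-high genes in the same libraries. The share that lay at least 30 points under leaf there was lowest on day 7, at 31.3% against 2.60% of leaf-high genes, and highest on day 11, at 85.8% against 12.5%. The leaf library stayed in every choice, so its own error is not checked this way.

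**Figure D2:**
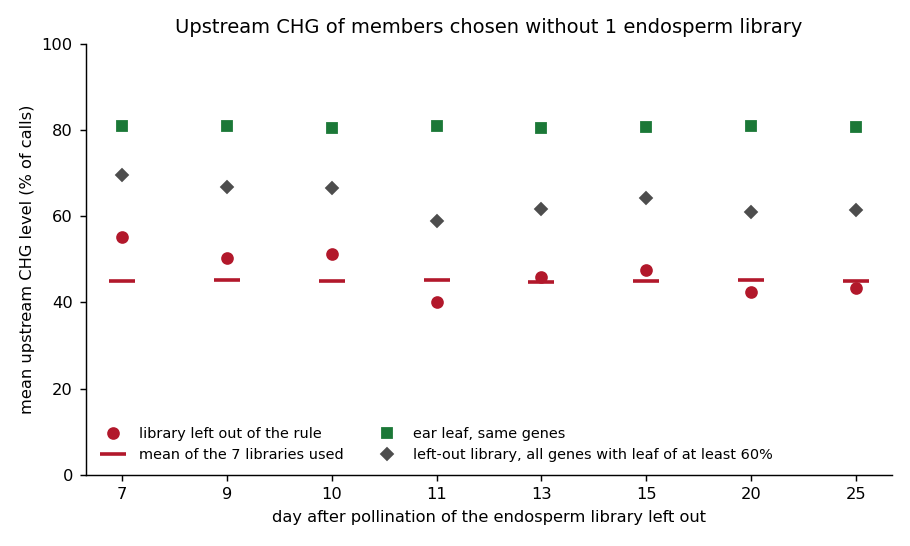
Mean upstream CHG level in percent of calls (vertical axis) of members chosen without 1 endosperm library, by the day of the library left out (horizontal axis). Red points are the library left out, red bars the mean of the 7 libraries used, green squares the leaf for the same genes, and grey diamonds the library left out over all leaf-high genes. Red points lie between 40.1% and 55.2%, under the grey diamonds at 58.8% to 69.6% and the green squares near 81.0%.

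In whole seed the members lay between endosperm and leaf. The whole seed mean was at least 10 points under leaf in 342 members, 54.7%, against 12.5% of leaf-high genes, and at least 30 points under leaf in 73 members, 11.7%, against 0.628%. It was within 10 points of leaf in 282 members, 45.1%, against 84.9% of leaf-high genes. It was within 10 points of the endosperm mean in 112 members, 17.9%, against 41.9% of leaf-high genes. Because the leaf level chose the members, these counts are descriptions and carry no test. The median difference of whole seed from leaf varied with the number of calls. It was -16.4 points in members whose poorest library held 20 to 39 calls and -4.90 points in those with 320 or more. In 373 members, 59.7%, all 8 endosperm libraries lay under both whole seed libraries, which 46.9% of leaf-high genes did too. Whole seed was above leaf in 66 members, 10.6%, against 30.7% of leaf-high genes. Chloroplast genes, whose DNA is taken to be unmethylated, read 2.14% to 2.66% CHG in endosperm, 8.14% on day 3 and 6.69% on day 5 in whole seed, and 2.37% in leaf. Mitochondrial genes read 2.31% to 2.89% CHG in endosperm, 3.06% on day 3 and 3.01% on day 5 in whole seed, and 5.17% in leaf, so that here the leaf library stood apart. These levels leave out gene regions without a methylated call in a library, which raises them. Chloroplast CHG calls numbered 18078 on day 3 and 33696 on day 5 in whole seed. Endosperm libraries had 54364 to 149133 such calls and leaf 156783. The part of the organelle offsets in the whole seed and leaf levels was not tested.

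Upstream CG methylation was lower along with CHG. Averaged over the members, it stood at 58.8% ± 2.67 in endosperm (SD, n = 8), 71.8% ± 1.24 in whole seed (SD, n = 2) and 82.1% in leaf, while leaf-high genes had 79.2%, 81.6% and 84.9%. The endosperm mean lay at least 15 points under leaf in 463 members, 74.1%, against 9.22% of leaf-high genes, and at least 30 points under in 178 members, 28.5%, against 1.56%. In 85 members, 13.6%, it lay less than 10 points under leaf, as in 80.3% of leaf-high genes. Across the 625 members the CG and CHG differences had a Pearson r of 0.472 and a Spearman rho of 0.429. These points share libraries, reads and upstream windows, and the CHG range is cut by the rule, so no p is given. Upstream CHH, the context with the lowest levels, stood at 3.78% ± 0.569 in endosperm (SD, n = 8), 5.20% ± 0.459 in whole seed (SD, n = 2) and 4.93% in leaf. The endosperm mean of CHH was under leaf in 402 members, 64.3%, near the 60.5% of leaf-high genes.

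**Figure D3:**
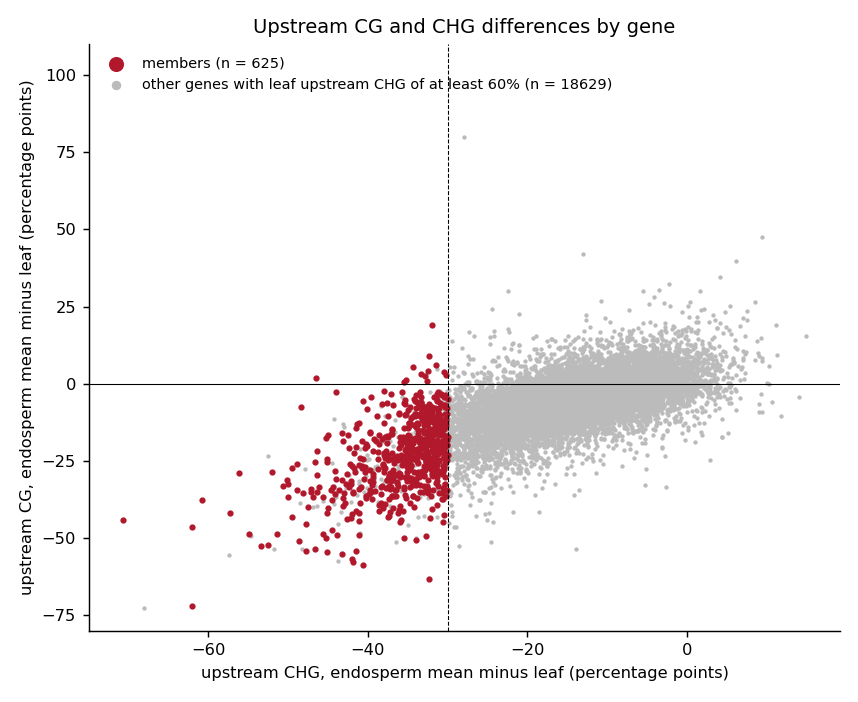
Difference of the endosperm mean from leaf in percentage points, for upstream CHG (horizontal axis) and upstream CG (vertical axis), with 1 point per gene. Members are red (n = 625) and the other leaf-high genes grey (n = 18629), and the dashed line marks the threshold of 30 points under leaf. Most red points lie under 0 for CG, with 463 of the 625 at least 15 points under leaf. Grey points left of the dashed line are genes whose body CG was lower too.

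The gene bodies differed widely in their methylation. In leaf, 244 members had body CG under 5%, 108 had 5% to under 20%, 85 had 20% to under 60% and 141 had at least 60%, while 47 had no usable body value in leaf. A body level of 0 without calls counts as kept under the rule; requiring at least 20 body CG calls in every library, a setting added after the data were seen, left 513 members. In the class under 5% the body was nearly free of methylation in every tissue, with body CG of 3.58% in endosperm, 3.20% in whole seed and 1.43% in leaf. In the class of at least 60% body CG stood at 83.1% in endosperm, 85.1% in whole seed and 88.0% in leaf. There body CHG stood at 59.1% in endosperm, 71.8% in whole seed and 72.9% in leaf. In this class body CHG differed from leaf by -13.8 ± 10.9 points and body CG by -4.93 ± 5.89 points on average (SD over 141 genes). The rule limits how far body CG may lie under leaf and sets no such limit on body CHG, so nothing is read from the gap between the contexts. The 5193 leaf-high genes of the same class that met the body CG limit had -11.3 ± 11.2 points in body CHG and -4.30 ± 5.25 points in body CG (SD over genes). In the other classes body CHG was within 2.14 points of leaf on average. Body CHG lay at least 15 points under leaf in 77 members, 12.3%, against 16.5% of leaf-high genes. The upstream CHG difference averaged -36.2 to -35.1 points in the 4 classes, values that the rule's limit of 30 points holds close together. The classes were drawn after the data were seen.

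**Figure D4:**
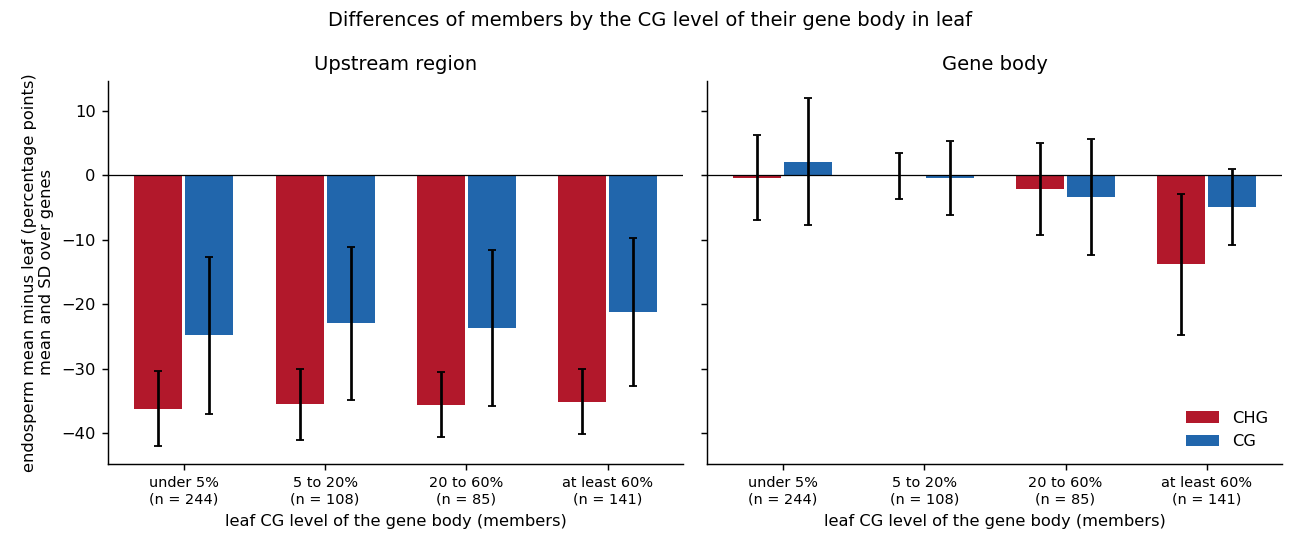
Mean difference of endosperm from leaf in percentage points (vertical axis) in 4 classes of members by the CG level of their gene body in leaf (horizontal axis, n = 244, 108, 85 and 141), for the upstream region on the left and the gene body on the right. Bars start at 0 and show CHG in red and CG in blue, with the SD over genes. Upstream CHG bars lie at -36.2 to -35.1 points, which the rule chose to be at least 30 points under leaf, and body CHG is at -13.8 points in the class of at least 60%.

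Within the 625, 19 members had body CG more than 15 points higher in endosperm than in leaf, which the rule also counts as kept. Of these, 4 had at least 20 body CG calls in every library.

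Named genes are given next, beginning with the widest differences from leaf. Coordinates are those of the deposited tables, and no genome build for them was given in the sources used here. GRMZM2G177005 (chromosome 2, 136621777 to 136624322, plus strand) had upstream CHG levels in endosperm of 18.9% at the lowest, 24.6% at the median and 44.7% at the highest. It had 80.2% on day 3 and 53.9% on day 5 in whole seed, and 97.9% in leaf (95% Wilson interval 92.8% to 99.4%, 97 calls). The difference of -70.7 points was the widest of all members, and no endosperm library reached either whole seed library or leaf. Its body CG was 3.25% in endosperm, 2.69% in whole seed and 1.03% in leaf, so body CG was low in all 3 tissues.

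GRMZM2G143128 (chromosome 3, 224499409 to 224502844, plus strand) had 11.3%, 31.4% and 76.9% as the lowest, median and highest endosperm levels, 48.8% and 44% in whole seed on days 3 and 5, and 100% in leaf (interval 92.6% to 100%, 48 calls). GRMZM2G339562 (chromosome 5, 23183498 to 23184546, plus strand) had 6.25%, 25.9% and 62.7% in endosperm, 40% and 2.38% in whole seed, and 89.7% in leaf (interval 73.6% to 96.4%, 29 calls). GRMZM2G412436 had 8.26%, 17.9% and 44.7% in endosperm, 57.1% and 54.0% in whole seed, and 80.8% in leaf. Endosperm overlapped whole seed in GRMZM2G143128 and GRMZM2G339562 and not in GRMZM2G412436, and all 3 were under leaf in every endosperm library. The poorest library held 26 upstream CHG calls in GRMZM2G143128, 28 in GRMZM2G412436 and 29 in GRMZM2G339562, which limits the single values of all 3. In the gene body of GRMZM2G339562, CG calls ran from 8 to 194 per library, so whether its body CG was kept is uncertain.

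The profilin gene prf3 (GRMZM5G876285), whose product binds actin, had upstream CHG of 9.45% at the lowest, 16.8% at the median and 40% at the highest in endosperm, 34.4% and 20.0% in whole seed on days 3 and 5, and 77.9% in leaf. Here whole seed lay inside the endosperm range and far from leaf. Its gene body carried methylation throughout, with body CG of 59.4% ± 6.47 (SD, n = 8) in endosperm, 58.5% in whole seed and 56.0% in leaf.

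The gene yuc (GRMZM2G091819; chromosome 10, 16517475 to 16520678, plus strand), of the YUCCA flavin monooxygenases that make auxin, had the lowest mean endosperm level among the named members. Its upstream CHG was 4.4%, 11.4% and 18.5% as the lowest, median and highest in endosperm, 28.1% and 33.7% in whole seed, and 63.0% in leaf (interval 55.1% to 70.2%, 154 calls). All endosperm libraries lay under both whole seed libraries, and these lay under leaf. Upstream CG was 28.3% ± 16.5 (SD, n = 8) in endosperm, 68.6% in whole seed and 76.9% in leaf, so that whole seed was nearer to leaf in CG and nearer to endosperm in CHG. Body CG was 1.23% in endosperm, 1.04% in whole seed and 1.05% in leaf.

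Among the transcription factors, MYB100 (GRMZM2G143046), of the MYB family, had 20.5%, 32.2% and 40.7% in endosperm, 61.6% and 49.3% in whole seed, and 77.8% in leaf. EREB203 (GRMZM2G104866), of the AP2/ERF family, had 20.1%, 34.7% and 42.1% in endosperm, 38.9% and 49.1% in whole seed, and 77.1% in leaf. MADS42 (GRMZM2G375707), of the MADS-box family, had 21.0%, 31.9% and 48.8% in endosperm, 70.1% and 74.1% in whole seed, and 71.6% in leaf. Whole seed stood between endosperm and leaf in MYB100, overlapped endosperm in EREB203 and lay beside leaf in MADS42. In 11 named transcription factors, a group put together after their values were seen, the difference from leaf ran from -46.4 to -30.9 points. Whole seed was within 10 points of leaf in 5 of the 11, against 45.1% of all members and 84.9% of leaf-high genes. The others in this group are HB123 (homeobox), bHLH11, bHLH139 and bHLH161 (basic helix-loop-helix), LOB38 (LOB domain), sbp5 (SBP-box), LIM5 (LIM domain) and o2. LOB38 read 42.6% ± 11.5 (SD, n = 8) in endosperm, 86.6% in whole seed and 73.8% in leaf, one of the members whose whole seed level was above leaf.

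The gene mbd111 (GRMZM2G025095; chromosome 2, 190664560 to 190686734, minus strand) encodes a protein with a methyl-CpG-binding domain. Its upstream CHG was 18.1%, 36.4% and 55.7% as the lowest, median and highest in endosperm, 89.5% and 79.5% in whole seed on days 3 and 5, and 79.2% in leaf (interval 73.7% to 83.9%, 241 calls). No endosperm library came near whole seed or leaf. Body CG stayed high at 89.4% ± 2.38 (SD, n = 8) in endosperm, 91.8% in whole seed and 93.4% in leaf. It was the single member among the 6 leaf-high genes of a list of DNA methylation and demethylation machinery, whose median difference from leaf was -8.29 points.

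Storage protein genes and their regulators held 2 members among 10 leaf-high genes of the list, whose median difference was -23.1 points. The first is o2 (Opaque2, GRMZM2G015534; chromosome 7, 10793341 to 10796233, plus strand), a bZIP factor that activates zein genes. Its upstream CHG was 25.0%, 46.0% and 55.6% as the lowest, median and highest in endosperm, 70.3% and 77.1% in whole seed, and 79.3% in leaf (interval 72.3% to 85.0%, 155 calls), so endosperm and whole seed did not overlap. Upstream CG was 45.2% ± 8.94 (SD, n = 8) in endosperm, 70.6% in whole seed and 81.7% in leaf, and body CG was 2.06% in endosperm, 0.800% in whole seed and 0.810% in leaf. The second is z1A1_6 (GRMZM2G353272; chromosome 4, 5535144 to 5536416, minus strand), an alpha-zein gene. Its upstream CHG was 20.7%, 56.7% and 80.3% in endosperm, 80.3% and 74.2% in whole seed, and 87.9% in leaf, and the day 11 endosperm library lay above the lower of the whole seed libraries. Its body CG was 75.6% in endosperm, 96.7% in whole seed and 90% in leaf. It lay -14.4 points from leaf and so close to the limit of 15, on 10 to 92 body CG calls per library. The z1C1_12 and z1C1_7 alpha-zein genes had upstream CHG differences of -40.5 and -41.4 points and were set aside because of body CG differences of -43.5 and -46.1 points.

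A neighbour of z1A1_6, z1A1_7 (GRMZM2G353268; chromosome 4, 5531007 to 5531954, minus strand), was a member with upstream CHG of 27.1%, 48.0% and 61.0% in endosperm, 86.8% and 93.5% in whole seed, and 89.8% in leaf. Endosperm lay under the other tissues without overlap. Only 1 to 9 body CG calls were made in the 9 libraries that had any, so that body CG cannot be called kept or lost there. Alpha-zein genes are near-identical copies, and calls may be shared or lost between them, so their values are uncertain.

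Of the other lists, no leaf-high gene was a member: this was so for 10 starch synthesis genes, 11 transfer layer and aleurone genes, 9 listed regulators with C2H2, MYB, MADS, bHLH or homeobox domains, 5 housekeeping genes, 4 photosynthesis genes and 3 Polycomb and imprinted genes. The median difference from leaf was -12.3 points in the starch synthesis genes and -14.7 points in the transfer layer and aleurone genes, near that of all leaf-high genes. It was -16.4 points in the regulators, -14.6 points in the housekeeping genes, -14.1 points in the Polycomb and imprinted genes and -9.05 points in the photosynthesis genes. Among the starch genes sbe3, a starch branching enzyme, came nearest to the rule with 59.0% in endosperm, 78.6% in whole seed and 82.4% in leaf. At a member share of 3.25%, lists of this size would hold few members whatever their genes, and nothing is read from these counts. The list of regulators was drawn up by gene name and leaves out MYB100, MADS42, HB123, bHLH11, bHLH139 and bHLH161, members of the same families.

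**Figure D5:**
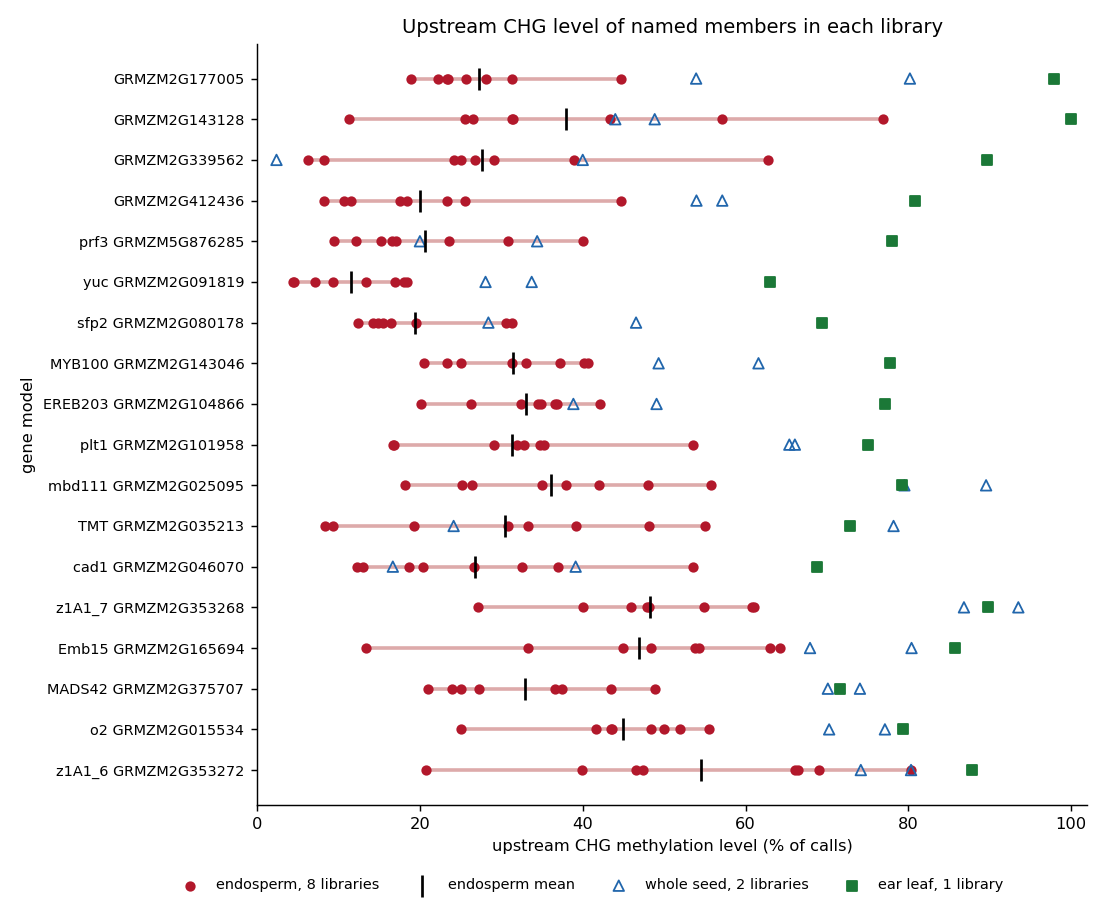
Upstream CHG level in percent of calls (horizontal axis) of 18 named members (vertical axis, widest difference from leaf at the top). Red points are the 8 endosperm libraries and black bars their mean, blue triangles the 2 whole seed libraries and green squares the leaf. Whole seed falls within the endosperm range in prf3, cad1 and GRMZM2G143128, and beside leaf in mbd111, MADS42 and z1A1_7.

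The remaining named members of the rule showed the same range of whole seed positions. The phospholipid transfer protein gene plt1 (GRMZM2G101958) had 16.7%, 32.3% and 53.6% in endosperm, 65.4% and 66.1% in whole seed, and 75% in leaf. The gene sfp2 (GRMZM2G080178) had 12.4%, 16.0% and 31.4% in endosperm, 28.4% and 46.5% in whole seed, and 69.4% in leaf, and cad1 (GRMZM2G046070) had 12.3%, 23.5% and 53.6%, 16.7% and 39.1%, and 68.8% in the same order. Whole seed overlapped endosperm in sfp2 and cad1 and not in plt1. Emb15 (GRMZM2G165694) had 13.3%, 51.1% and 64.3% in endosperm, 80.4% and 67.9% in whole seed, and 85.7% in leaf. TMT (GRMZM2G035213) had 8.33%, 32.0% and 55.1% in endosperm, 24.1% and 78.2% in whole seed, and 72.8% in leaf. The 2 whole seed libraries stood far apart in TMT, where 1 library held as few as 24 calls.

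Of all 44 members with a gene name, whole seed was under leaf in 37 and at least 30 points under it in 7, and upstream CG was at least 15 points under leaf in 32. In 5 of the 44, all 8 endosperm libraries lay at least 30 points under leaf: yuc, sfp2, MYB100, EREB203 and GRMZM5G876285 (prf3). Whole seed was above leaf in 10.6% of all members and 30.7% of leaf-high genes, and at least 30 points under it in 11.7% and 0.628%. Upstream CG was at least 15 points under leaf in 74.1% and 9.22%. All 8 libraries lay at least 30 points under leaf in 7.20% and 0.322%. Nothing is read from the counts of named members. Groups put together after the values were seen covered 7 signalling and membrane proteins, among them the receptor-like protein pangloss2, the NADPH oxidase rbohB and the cell number regulator CNR4, with differences from leaf of -33.9 to -30.4 points. In 6 genes of metabolism and transport, among them the lycopene epsilon cyclase lyce1 and the cytochrome P450 CYP78A53, the differences ran from -51.5 to -30.3 points, and the mean of the whole seed libraries was at least 10 points under leaf in all 6. In 5 genes for ribosomal proteins, splicing and protein modification, among them rps4, rpl32 and the SUMO ligase Siz1b, they ran from -37.5 to -31.2 points, and the mean of the whole seed libraries was at least 10 points under leaf in all 5. Single libraries departed from this. In rpl32 whole seed read 100% on day 3 and 27.3% on day 5, against 85.4% in leaf. In Siz1b it read 81.5% on day 5, against 90.1% in leaf. A whole seed mean at least 10 points under leaf was found in 54.7% of all members and 12.5% of leaf-high genes. The groups were put together after the values were seen, so nothing is read from their counts.

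Members with many calls carry the least counting error, and 3 of them, picked after their values were seen, are given here. In GRMZM2G019619 (chromosome 8, 99158725 to 99162360), with at least 1230 calls in every library, upstream CHG was 50.2% ± 6.74 (SD, n = 8) in endosperm, 83.9% in whole seed and 84.9% in leaf. In AC213353.3_FG004 (chromosome 3, 18329999 to 18330649), with at least 834 calls, endosperm had 19.8%, 45.8% and 57.2% as lowest, median and highest, whole seed 67.3% and 58.7%, and leaf 86.6%. GRMZM2G044104 (chromosome 4, 5149611 to 5150695), with at least 695 calls, had 29.0%, 32.2% and 43.3% in endosperm, 70.8% and 63.8% in whole seed, and 73.6% in leaf. Endosperm stayed under whole seed in both of the genes given by library, and in GRMZM2G044104 each endosperm library was at least 30 points under leaf. CG moved apart from CHG in GRMZM5G821709, which had at least 452 calls: its upstream CHG was -30.4 points from leaf and its upstream CG -4.42 points.

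Change over the 8 endosperm stages was tested, since the rule used their mean and not their slope. Each measure was fitted against day with limma over all genes with at least 10 calls in every library. No member passed a Benjamini-Hochberg adjusted p of 0.05 for upstream CHG, 0 of 625, and none of the 36075 genes tested did, so that the background was 0%. At an unadjusted p under 0.05 there were 115 members, 18.4%, and 4058 genes in all, 11.2%, and a quasi-binomial model of the calls also called 0. The fitted change over the 18 days from day 7 to day 25 was under 0 in 466 members, with a median of -8.70 points, against -4.71 points over all genes. The genes tested are not limited to leaf-high genes, a class to which every member belongs. Mean upstream CHG was 69.6% on day 7 and 61.4% on day 25 in leaf-high genes, and 52.5% and 42.3% in the members. Whether the fitted change of the members differs from that of leaf-high genes was not tested. With each library shifted by its median over all genes, the median change became -1.36 points in the members and 2.63 points over all genes, so the size of the members' median change depends on the scaling. It was -5.75 points without the day 7 library and -13.7 points without the day 25 library, where all genes had -3.17 and -6.96 points. On day 7, the youngest endosperm stage, 247 members, 39.5%, were at least 30 points under leaf, against 2.60% of leaf-high genes. Day 7 was the highest of the 8 libraries in 216 members, 34.6%, against 40.3% of leaf-high genes, and day 11 the lowest in 151, 24.2%, against 31.1%.

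Upstream CG gave 0 of 611 members past the threshold, with a background of 0%, 58 members, 9.49%, at an unadjusted p under 0.05 against 5.59% of all genes, and 0 in the quasi-binomial model. Body CG gave 0 of 493 and body CHG 0 of 515, both with a background of 0%, and 0 in the quasi-binomial model. At an unadjusted p under 0.05 there were 26 members for body CG, 5.27% against 5.39% of all genes, and 46 for body CHG, 8.93% against 7.59%. Body CHH gave 0 of 534 against a background of 0.0277%, with 50 members, 9.36%, at an unadjusted p under 0.05 against 7.69% of all genes, and 2 members, 0.375%, in the quasi-binomial model against 0.212%. Upstream CHH rose with day in 7 of 625 members, 1.12%, against 1.84% of all genes tested, a share near the background. The 7 calls rest on single libraries: 0 were left without the day 10 library and 0 without the day 25 library.

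The widest of these CHH increases was in GRMZM2G120408 (chromosome 5, 139232076 to 139235314, minus strand). Its upstream CHH was 3.39% at the lowest, on day 7, 15.4% at the median and 34.98% at the highest, on day 25, in endosperm, 24.9% and 26.6% in whole seed and 28.2% in leaf. It rose by 26.0 ± 4.26 points over the 18 days (SE; adjusted p = 0.0322, limma with Benjamini-Hochberg adjustment; 0.0291 to 0.231 over the alternatives). The basic helix-loop-helix gene bHLH161 (GRMZM2G045883) had 3.09% on day 7, 11.7% at the median and 27.0% on day 25 in endosperm, 16.2% and 10.6% in whole seed and 20.6% in leaf. It rose by 25.2 ± 3.06 points (SE; limma adjusted p = 0.0205; 0.0158 to 0.0909 over the alternatives). Both genes had low CHH in young endosperm and reached the leaf level late, while their upstream CHG stayed under leaf throughout. GRMZM2G084063 and GRMZM2G076946 rose by 13.9 ± 2.05 and 9.89 ± 1.85 points (SE; limma adjusted p = 0.0266 and 0.0462; up to 0.116 and 0.21 over the alternatives).

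Endosperm was then set against whole seed, 8 libraries against 2, with the same fit. For upstream CHG 306 of 625 members were lower in endosperm, as were 14.6% of all 36075 genes tested, and for body CG 7 of 493 members passed, 1.42% against 1.24%. The rule used the endosperm means of both measures, so nothing is read from these counts. Upstream CG was lower in endosperm in 31 of 611 members, 5.07%, against 0.507% of all genes tested. The rule did not use this measure, but it did use these endosperm libraries, and CG and CHG share reads. The genes tested are also not limited to leaf-high genes, and a difference of the members from leaf-high genes was not tested. Without the day 3 whole seed library 0 members passed, without the day 5 library 2 members passed, and with day as a covariate 0 passed. With day as a covariate 0 of all 36102 genes passed too. Leaving out an endosperm library gave 17 to 38. There were 17 without day 15, 2.78% against 0.258% of all genes, and 38 without day 7, 6.22% against 0.604%.

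The 31 members had a median upstream CG of 42.8% in endosperm, 87.6% in whole seed and 85.5% in leaf. They were picked for a higher level in whole seed than in endosperm, so nothing is read from how near whole seed was to leaf, and over all members the mean upstream CG was 71.8% in whole seed and 82.1% in leaf. The widest change was in AC207790.2_FG001 (chromosome 6, 108854641 to 108855493, minus strand). Its upstream CG was 19.4%, 35.6% and 56.1% as the lowest, median and highest in endosperm, 90.2% and 91.3% in whole seed and 77.0% in leaf, and the difference of endosperm from whole seed was -54.1 ± 7.24 points (SE; limma adjusted p = 0.0196; 0.00608 to 0.19 over the alternatives). GRMZM2G026085 (chromosome 5, 180581907 to 180582771, plus strand) had 33.3%, 41.1% and 52.2% in endosperm, 85.4% and 87.5% in whole seed and 87.3% in leaf, a difference of -44.7 ± 4.09 points (SE; limma adjusted p = 0.00567; 0.000366 to 0.105 over the alternatives). Endosperm and whole seed did not overlap in either gene. GRMZM2G176437 and GRMZM2G380284 differed by -50.1 ± 7.78 and -46.8 ± 7.06 points (SE; limma adjusted p = 0.0268 and 0.0248; up to 0.255 and 0.233 over the alternatives).

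The other contexts gave shares of members near the background. Upstream CHH passed in 46 of 625 members, 7.36% against 7.53% of all genes, with 45 of the 46 lower in endosperm. Body CHG was lower in 26 of 515 members, 5.05% against 4.15%, and body CHH in 23 of 534, 4.31% against 5.42%. The body CHG calls were 0 with day as a covariate, 1 without the day 3 and 7 without the day 5 whole seed library, and 9 to 45 when leaving out an endosperm library. Upstream CHH passed in 22 members without the day 3 whole seed library, and in 29 and 25 without the day 9 and the day 11 endosperm library. Over all genes, body CHG passed in 0.0225% with day as a covariate, and in 2.11% to 7.25% when leaving out an endosperm library. For upstream CHH, 4.64% and 4% of members passed without the day 9 and the day 11 library, against 5.59% and 5.3% of all genes. Of the 26 with lower body CHG, 17 had a leaf body CG of at least 60%. Chloroplast CHG was higher in whole seed, as given above, and so was chloroplast CHH on day 3, at 1.07% against 0.69% to 0.977% in endosperm; its part in these differences was not tested.

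For upstream CHH the smallest adjusted p was that of GRMZM2G009475 (chromosome 8, 22507387 to 22508479, minus strand). Its upstream CHH was 0.680%, 2.04% and 4.93% as the lowest, median and highest in endosperm, 19.9% and 19.3% in whole seed and 10.2% in leaf. Endosperm differed from whole seed by -17.3 ± 1.11 points (SE; limma adjusted p = 0.000141; 0.000135 to 0.00528 over the alternatives), with no overlap. GRMZM2G101926, GRMZM2G308910 and GRMZM2G098867 differed by -18.7 ± 2.70, -12.9 ± 1.93 and -13.4 ± 3.32 points (SE; limma adjusted p = 0.00408, 0.00501 and 0.0399). GRMZM2G101926 and GRMZM2G308910 passed in 17 of 17 settings, but GRMZM2G098867 in 7 of 17, with an adjusted p of up to 0.334, and its whole seed libraries read 25.96% and 9.33%. In GRMZM2G308910 the whole seed libraries, at 19.2% and 19.4%, were far from leaf at 2.70%.

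In the gene body the widest CHG difference was that of the alpha-zein gene z1A1_6, with 28.4%, 39.8% and 65.8% as the lowest, median and highest in endosperm, 90.5% and 95.8% in whole seed and 91.7% in leaf. Endosperm differed from whole seed by -50.2 ± 9.74 points (SE; limma adjusted p = 0.0309; 0.00332 to 0.243 over the alternatives). Body CHG was thus lower in a gene whose body CG met the rule. GRMZM2G419852, AC215874.3_FG003 and GRMZM2G322717 differed by -26.8 ± 5.64, -25.7 ± 5.71 and -24.7 ± 5.04 points (SE; limma adjusted p = 0.0365, 0.0414 and 0.0344). Their adjusted p reached 0.299, 0.335 and 0.25 over the alternatives, and they passed in 9 of 16, 8 of 17 and 11 of 17 settings. For body CHH, GRMZM2G362926, GRMZM2G076946, GRMZM2G101920 and GRMZM2G153087 differed by -12.4 ± 2.53, -6.25 ± 1.09, -5.42 ± 0.716 and -4.99 ± 1.05 points (SE; limma adjusted p = 0.0200, 0.00971, 0.00242 and 0.0234). GRMZM2G101920 passed in 17 of 17 settings and the other 3 in 14, 16 and 14.

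The members were spread over the genome. Chromosome 1 held 97 of them, 15.5% against 14.9% of leaf-high genes, and chromosome 5 held 90, 14.4% against 10.7%. Chromosomes 7 and 9 held 35 each, 5.6%, against 7.89% and 7.48% of leaf-high genes. The median gene length was 2546 bp against 2574 bp over leaf-high genes, and the median number of genes within a window of 1 Mb was 22 against 21. The next gene model upstream lay at a median distance of 31.9 kb, against 46.2 kb, and within 5 kb for 17.8% of the members, against 11.1% of leaf-high genes. In 11 members that upstream neighbour was itself a member, and 2 pairs of members faced each other head to head, neither within 5 kb. Members make up 1.58% of nuclear gene models, so some neighbours would be members whatever their position. Nothing is read from these counts of neighbours. FGENESH gene models, predicted by program, made up 6.40% of the members and 8.23% of leaf-high genes, and leaf body CG was under 5% in 39.0% of the members and 27.3% of leaf-high genes. Of the calls in the upstream region 16.5% were CHG in the median member, against 17.9%. These features are descriptions, and their relation to the number of calls was not tested.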

How the data were processed

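DNA methylation was measured by bisulfite sequencing in 8 endosperm, 2 whole seed and 1 ear leaf library. The submitters' processing notes name Bismark, Bowtie2 and cutadapt. Their versions and settings, the build of the genome and how far the upstream region reaches were not given in the sources used here. Deposited tables hold, per the file headers, counts of methylated calls and levels in percent per gene, computed by the authors for gene body and upstream region in the CG, CHG and CHH contexts. Total calls were recovered as count over level. In 102580 values with a count of 0, the total was inferred from calls of that gene in its other contexts. The upstream CHG call minimum of the rule did not use these inferred totals. Summed over gene bodies and upstream regions, libraries held 151034738 to 223198933 calls in endosperm, 154315521 and 195795323 in whole seed and 143230165 in leaf, chloroplast and mitochondrion included. Regions without a methylated call in a context are left out of that context's sum. Intervals are 95% Wilson intervals and cover counting error only, since calls of 1 read are not independent.

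The members and the lists were chosen with earlier results of these data known. Levels were fitted per measure over all genes with limma 3.58.1 in R 4.3.3, with day as a number over the 8 endosperm libraries, or with tissue over endosperm and whole seed. A gene entered with 10 or more calls in all 11 libraries and a mean CG or CHG level of 1% or more (no such minimum for CHH). Calls were made at 0.05 after Benjamini-Hochberg adjustment over all genes tested. These genes are not limited to leaf-high genes, so shares of all genes come from a wider class than the members. The alternatives were other minimums, an arcsine scale, trended moderation, a quasi-binomial model, shifted libraries, day as a covariate and leaving out each library. The fits were tested on simulated data. Tables were handled with pandas 2.3.3, scipy 1.17.1 and numpy 2.4.6 under Python 3.11.15, and drawn with matplotlib 3.10.9.

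Names came from NCBI RefSeq (assembly Zm-B73-NAM-5.0), which matched 18774 of 39475 nuclear genes by identifier. The symbol was used or, where it was a LOC number, the first synonym that was not a clone or probe name, a choice made after seeing how few symbols there were; 44 members have a name. Coordinates are those of the deposited tables. The genes named are the 12 named members and the 5 members of all with the widest difference from leaf, the 3 genes on each side of the threshold, up to 4 members per tested measure past the threshold by size of change, and members on a list. Other genes were chosen after their values were seen. No sequences are shown.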

Additional observations from a re-analysis of the deposited data

Results flagged for a closer look

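Over the 8 endosperm libraries, 11 of 114 sets of levels held 1 library whose gap to the nearest other, divided by the range, was above Dixon's 95% critical value of 0.526. The sets were the upstream levels of 36 named members in each context, and the means over all members for each upstream and body measure. All 11 flags fell on upstream levels of named members. Chance flags about 1 in 20 such sets. For upstream CHG these were o2 (GRMZM2G015534) on day 11, at 25.0% where the nearest other library had 41.7%, GRMZM2G084063 on day 13, at 23.5% beside 50%, GRMZM2G101926 on day 20, at 4.17% beside 25.0%, and GRMZM2G419852 on day 20, at 67.3% beside 56.0%. For upstream CG they were TMT (GRMZM2G035213) on day 10, at 22.7% beside 60.3%, and GRMZM2G322717 on day 25, at 51.1% beside 64.7%. For upstream CHH they were GRMZM2G143128 on day 13, at 13.4% beside 6.28%, Emb15 (GRMZM2G165694) on day 20, at 13.6% beside 4.55%, MADS42 (GRMZM2G375707) on day 20, at 8.22% beside 3.63%, GRMZM2G380284 on day 10, at 3.42% beside 1.88%, and AC215874.3_FG003 on day 25, at 10.3% beside 4.02%. All but GRMZM2G419852 among the CHG and CG values lay below the other libraries, and the 5 CHH values lay above them.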

How the results depend on the processing

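The number of members depends most on the loss threshold and on scaling: a loss of at least 25 points gave 1392 genes with a mean endosperm level of 49.9%, one of 35 points gave 261 with 40.2%, and shifting each library by its median gave 49 with 32.8%. Leaving out 1 endosperm library gave 555 to 735 members and means of 44.7% to 46.3%. Other limits on calls, leaf level and body CG, the median and pooled calls moved the count by under 1.5 times. In the day trend, upstream CHH gave 0 members on the arcsine scale, 0 with trended moderation and 17 in the quasi-binomial model (2.72% against 3.64%), with 0 to 11 when leaving out a library, and body CHH gave 2 in the quasi-binomial model. Leaving out a library gave 0 in the other day trends. Between endosperm and whole seed, the quasi-binomial model gave 101 members for upstream CG (16.5% against 1.36% of all genes), 40 for body CHG (7.77% against 6.94%) and 4 for body CG (0.811% against 1.24%). The arcsine scale gave 71 for upstream CG (11.6% against 0.787%), 23 for upstream CHH (3.68% against 3.84%) and 7 for body CHH (1.31% against 2.44%). Shifted libraries gave 29 for upstream CHG (4.64% against 0.211%), 14 for upstream CHH (2.24% against 3.2%), 13 for body CHH (2.43% against 3.21%) and 4 for body CG (0.811% against 0.615%). Day as a covariate gave 0 for upstream CHG, upstream CG, body CHG and body CG. It gave 39 for upstream CHH (6.24% against 7.23%) and 9 for body CHH (1.69% against 2.37%). Leaving out an endosperm or a whole seed library gave 250 to 348 and 0 to 3 for upstream CHG, 17 to 38 and 0 to 2 for upstream CG, 25 to 47 and 22 to 51 for upstream CHH, 4 to 8 and 0 to 6 for body CG, 9 to 45 and 1 to 7 for body CHG, and 17 to 21 and 16 to 34 for body CHH. Without 1 endosperm library, shares of members against all genes were 40% to 55.7% against 7.96% to 24.1% for upstream CHG. They were 2.78% to 6.22% against 0.258% to 0.604% for upstream CG and 4% to 7.52% against 5.3% to 7.92% for upstream CHH. For body CG they were 0.811% to 1.62% against 0.685% to 1.25%. Body CHG had 1.75% to 8.74% against 2.11% to 7.25%, and body CHH 3.18% to 3.93% against 4.08% to 5.24%. A further 509 values under alternatives mix test refits of single genes, upstream CHG differences of named members from leaf, and mean whole seed levels of the members. Of these, 420 stayed the same, 88 no longer passed, 1 moved and 0 changed direction. All 88 were test refits, so their share of the refits is larger. The differences have no threshold and count as the same within 1 endosperm SD, which leaving out 1 library cannot exceed. The 1 that moved was the mean whole seed level with shifted libraries, 58.5% against 67.4%. The cause was not tested. No paired analysis was possible because the labels number no replicates and each stage has 1 library. Members with few calls limit single values, and whole seed rests on 2 libraries.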
